A study of Mus musculus with 2 samples.

Results

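The regions described here are the DNase I hypersensitive peaks of embryonic mouse limb whose nearest protein-coding transcription start site (TSS) belongs to an olfactory receptor gene, that is, a gene whose symbol starts with Olfr, with the peak centre no more than 100 kb from that TSS. They were 455 of 208674 peaks in replicate 1 (0.218%, 95% Wilson interval 0.199% to 0.239%) and 445 of 196593 peaks in replicate 2 (0.226%, 0.206% to 0.248%), a mean of 450 ± 7.07 peaks per list (SD, n = 2). Membership rests on position alone, with no use of the signal. Each list places its members nearest to 236 of the 1135 Olfr genes. In neither list did 829 Olfr genes (73.0%) have a peak nearest to them, against 13.4% of all protein-coding genes. Such shares also depend on how much sequence lies nearest to a gene. Within 100 kb that sequence covers 30.3 Mb for the 1135 Olfr genes and 1681.9 Mb for all 21938 protein-coding genes.

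Olfactory receptors are G protein-coupled receptors of the sensory neurons of the nose and form the largest gene family of the mouse genome, with intron-free coding sequences set in long tandem arrays. A mature olfactory neuron transcribes 1 allele of 1 receptor gene and keeps the other arrays in heterochromatin. In these neurons, enhancers scattered through the arrays and bound by Lhx2, Ebf factors and the cofactor Ldb1 gather around the chosen gene. The arrays are regarded as closed chromatin in most other tissues.

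The study maps open chromatin by DNase-seq, in which DNase I cuts accessible DNA in nuclei and the cut ends are sequenced. There is 1 group, whole limb tissue of B6NCrl embryos at day 14.5, with males and females pooled and described as healthy, and it holds 2 biological replicates that carry the same donor identifier. No treatment, mutation or second tissue is part of it, so the comparisons run between the replicates and between regions within a list. The depth of each library is unknown, since the lists give regions and a signal per peak and no read counts. A region without a peak is therefore one where no peak was called at this depth. In whole tissue, opening in fewer cells and weaker opening per cell cannot be told apart. A peak is called shared where a peak of the other list covers 50% of it or more, and 65.1% of all protein-coding genes had a shared peak within 500 bp of a TSS. Beside that share, all 10 limb genes checked, among them the mesenchymal factor Prrx1 and the cartilage factor Sox9, had a shared TSS peak. Of 12 genes of mature olfactory neurons, 4 had one (Gnal, Cngb1, Adcy3 and Ano2), and Omp, which marks mature olfactory neurons, had no TSS peak in either replicate. A shared peak over 1 kb from every protein-coding TSS was nearest to 11 of the 12, Omp among them. The same held for 9 of the 10 limb genes and 64.9% of all protein-coding genes. All 6 genes for the enhancer factors, Lhx2, Ebf1, Ebf2, Ebf3, Ebf4 and Ldb1, had a shared TSS peak, again beside 65.1% of all protein-coding genes, and these factors also act in many other tissues.

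Most peaks in receptor territory lay away from promoters. Of the members, 39 in replicate 1 (8.57%, 6.33% to 11.5%) and 36 in replicate 2 (8.09%, 5.90% to 11.0%) overlapped the 500 bp on either side of a TSS, against 15.9% and 16.3% of all peaks. Distal peaks, over 1 kb from every protein-coding TSS, numbered 395 in replicate 1 and 393 in replicate 2, and 21 and 16 peaks lay between these limits. Among peaks within 100 kb of a TSS in replicate 1, 24.2% of members and 16.2% of all peaks lay 1 to 5 kb away, and 36.7% of members and 24.3% of all peaks lay 5 to 20 kb away. At 20 to 50 kb the shares were 20% of members and 20.2% of all peaks, and at 50 to 100 kb 5.93% of members and 13.7% of all peaks. Peak centres fell between protein-coding genes for 79.3% of members in replicate 1 and 80.4% in replicate 2, against 49.1% and 49.95% of all peaks. Introns held 9.45% and 8.76% of members, against 41.7% and 41.3% of all peaks. The TSS share of members was 2.86% when only the 50000 peaks of highest signal in each list were used. It was 13.1% when the TSSs of all gene types competed for the nearest one. The shares of all peaks under these settings were not computed.

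Shared members are given at their replicate 1 coordinates, and a pair of signals is that of replicate 1 followed by that of replicate 2, in the authors' own unit. Only 18 of the 1135 Olfr genes had a shared peak in a TSS window (1.59%, 95% Wilson interval 1.01% to 2.49%), whereas 65.1% of all 21938 protein-coding genes did. In the same count, 3 of 331 vomeronasal receptor genes, which encode pheromone receptors and also lie in arrays, and 9 of 53 keratin genes, a family of skin and hair filament proteins, had one. In either replicate alone 35 and 32 Olfr genes had a TSS peak, beside 69.4% and 68.2% of all protein-coding genes. When both lists were reduced to their 50000 strongest peaks, 2 Olfr genes had a shared one. The share of all protein-coding genes was not computed for that cut. Of 272 annotated Olfr pseudogenes, 1, Olfr1069-ps1, had a shared TSS peak.

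The 18 genes carried 20 shared TSS peaks, 18 of them with an Olfr TSS as the next protein-coding TSS on each side. In most of these 18 both flanking TSSs belong to the same gene. The 20 peaks had signals from 23 to 73 in replicate 1 (median 41.5) and from 17 to 67 in replicate 2 (median 33). Medians over all TSS peaks were 70 in replicate 1 and 49 in replicate 2. A peak of Olfr156 exceeded that median in replicate 1 and the peak of Olfr957 did so in replicate 2. Olfr156 on chromosome 4 had a pair of shared peaks, one 276 bp upstream of its TSS with signals of 73 and 49 and one 55 bp downstream with 29 and 35. Olfr957 on chromosome 9 had a shared peak 98 bp downstream of its TSS with a signal of 67 in each replicate. The peaks of 73 and 49 and of 67 and 67 are the shared members in TSS windows with the highest mean signal percentiles. Among the 20, 2 were at or above percentile 75 in both lists.

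Other shared TSS peaks were weaker. Olfr1033 had signals of 62 and 38, and its peak lies in sequence of which 79.3% is marked as repeat in the genome file. Olfr557, whose other neighbour is the ubiquitin ligase gene Trim68, had 57 and 28. Olfr1507, a receptor much used in studies of receptor choice, had 50 and 44, centred 18 bp from its TSS. Its neighbour in the array, Olfr1508, had 23 and 22, among the weakest of the set. The Olfr160 to Olfr986 array of chromosome 9 held 4 of the 18 genes. There, Olfr958 had a pair of peaks with 34 and 39 and with 46 and 32, Olfr969 had 31 and 44, and Olfr970 had 49 and 41. The remaining genes were Olfr433, Olfr1392, Olfr224, Olfr222, Olfr464, Olfr1499, Olfr1178, Olfr1336 and Olfr658, with 24 to 51 in replicate 1 and 17 to 37 in replicate 2.

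The 4 strongest shared TSS peaks of which no base lies in an annotated protein-coding exon are shown here to let their sequences be read directly. Their centres lie 224 to 531 bp from the TSS, upstream of it except for Olfr970, whose peak is centred in an intron. The peak of Olfr1033, with a higher mean percentile than 3 of the 4, is left out because 13 of its bases lie in an exon. They are given on the plus strand of mm10, 5′ to 3′, from chr4:43824096-43824245 (Olfr156), chr9:39809316-39809465 (Olfr970), chr7:102695496-102695645 (Olfr557) and chr11:87921116-87921265 (Olfr464), with CG dinucleotides in capitals.
Olfr156 TSS peak: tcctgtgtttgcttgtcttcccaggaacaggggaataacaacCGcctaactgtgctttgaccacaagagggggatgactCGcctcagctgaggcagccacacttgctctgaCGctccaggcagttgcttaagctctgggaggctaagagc
Olfr970 TSS peak: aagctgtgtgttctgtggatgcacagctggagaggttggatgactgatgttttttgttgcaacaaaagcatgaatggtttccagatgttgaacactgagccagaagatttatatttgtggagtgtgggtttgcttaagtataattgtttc
Olfr557 TSS peak: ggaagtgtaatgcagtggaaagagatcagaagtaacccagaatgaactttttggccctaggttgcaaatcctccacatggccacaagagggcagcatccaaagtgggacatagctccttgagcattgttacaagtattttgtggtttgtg
Olfr464 TSS peak: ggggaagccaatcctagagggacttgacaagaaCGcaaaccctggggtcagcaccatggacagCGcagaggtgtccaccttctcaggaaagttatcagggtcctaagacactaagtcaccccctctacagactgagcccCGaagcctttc
Olfr156 and Olfr464 have 3 CG dinucleotides each within the 150 bp, and Olfr970 and Olfr557 have none. Over all 20 shared TSS peaks, 6 lacked any CG. The promoters were poor in CpG by another measure as well: the ratio of observed to expected CpG within 500 bp of a TSS, the highest over the TSSs of a gene, had a median of 0.239 over the 18 genes (range 0.125 to 0.409) and 0.152 over the other 1117 Olfr genes, whereas the median over all protein-coding genes with a shared TSS peak was 0.750.

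Receptors with described roles outside the nose were looked up by name. None of the 9, Olfr78, Olfr558, Olfr16, Olfr544, Olfr1393, Olfr2, Olfr90, Olfr920 and Olfr287, had a TSS peak in either replicate, beside 4.32% of all Olfr genes, a share at which 0 of 9 does not set them apart. Olfr78, known from carotid body and kidney, had 1 distal peak in replicate 2 alone, and Olfr16, known from sperm and muscle, had 2 there. Olfr287 had 2 distal peaks in replicate 1 alone. Olfr90 had 2 shared distal peaks and Olfr1393, known from kidney, had 1, beside 11.7% of all Olfr genes with any. Of 7 receptors widely used as models in the nose, 6 matched a protein-coding gene. Olfr1507 and Olfr156 were those with a shared TSS peak, beside 1.59% of all Olfr genes. Olfr545 had 3 shared distal peaks, and Olfr17 and Olfr73 had no peak in either list.

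Signals in receptor territory were low. The median signal was 33 for members and 42 for all peaks in replicate 1, and 24 for members and 31 for all peaks in replicate 2. As a percentile within the list, the median member stood at 30.5 in replicate 1 and 28.9 in replicate 2 (mean 29.7 ± 1.12, SD, n = 2). The lowest signal quartile held 198 members in replicate 1 (43.5%) and 208 in replicate 2 (46.7%). In TSS windows the median signal was 28 for members and 70 for all TSS peaks in replicate 1, and 22.5 and 49 in replicate 2. Distal members had medians of 35 and 24, against 39 and 29 over all distal peaks. The top quartile of the list held 22.0% of distal members and 18.9% of all distal peaks in replicate 1, and 14.2% and 19.2% in replicate 2. The direction thus differed between the lists, and no interval was computed for these shares. The distal members include peaks at tRNA genes, 18 in replicate 1 and 19 in replicate 2, with median percentiles of 94.0 and 91.6.

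**Figure D1:**
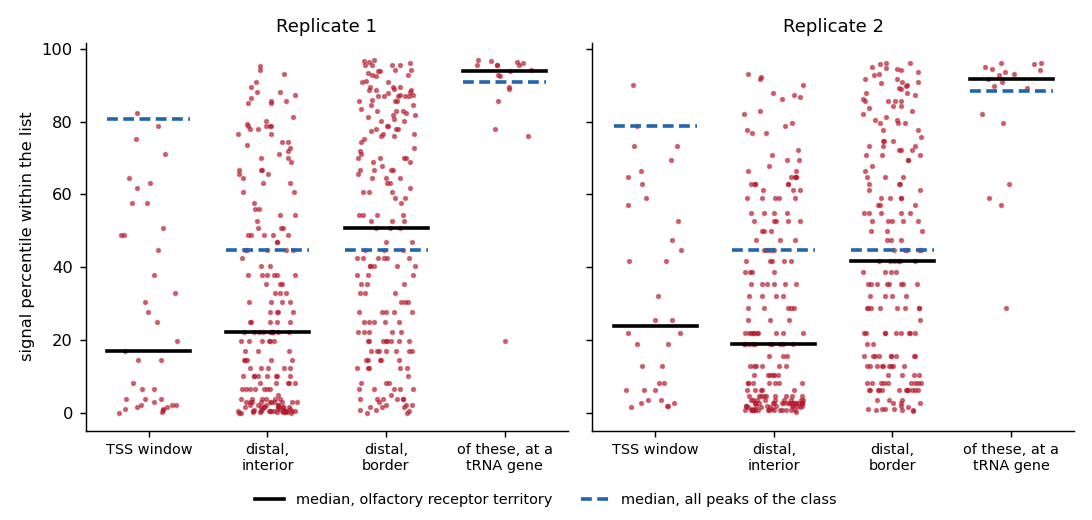
Signal percentile within each list (vertical axis) of every Olfr-territory peak in a TSS window or at a distal site, one panel per replicate. Distal peaks are split into interior and border peaks. The peaks at tRNA genes, all of them border peaks, are drawn again at the right. Black lines are medians of the points and dashed blue lines are medians of all peaks of the class; the TSS medians lie far below those of all TSS peaks, and the tRNA peaks have medians of 94.0 in replicate 1 and 91.6 in replicate 2.

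Recurrence between the replicates followed the signal. Shared peaks made up 262 of 455 members in replicate 1 (57.6%, 53.0% to 62.0%), beside 61.2% of all its peaks, and 263 of 445 in replicate 2 (59.1%, 54.5% to 63.6%), beside 65% of all its peaks. The members' interval takes in the share of all peaks in replicate 1 and lies below it in replicate 2. Within signal quartiles of the list the order differed. In the lowest quartile of replicate 1, 26.3% of members (20.6% to 32.8%) and 23.7% of all peaks recurred. In the second quartile the shares were 62.6% of members (52.4% to 71.9%) and 48.9% of all peaks, and in the third 89.5% of members (80.6% to 94.6%) and 76.2% of all peaks. Those intervals lie above the share of all peaks, and in replicate 2 that held for the second quartile, with 78.2% of members (68.4% to 85.5%) and 55.4% of all peaks. In the third quartile of replicate 2 the interval for members (79.8% to 93.2%) reached the 80.0% of all peaks. In the top quartile members and all peaks recurred at 94.4% each in replicate 1, and at 96.6% and 94.4% in replicate 2. Peaks of a library are not independent samples of limbs, and these intervals cover only the sampling of peaks.

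**Figure D2:**
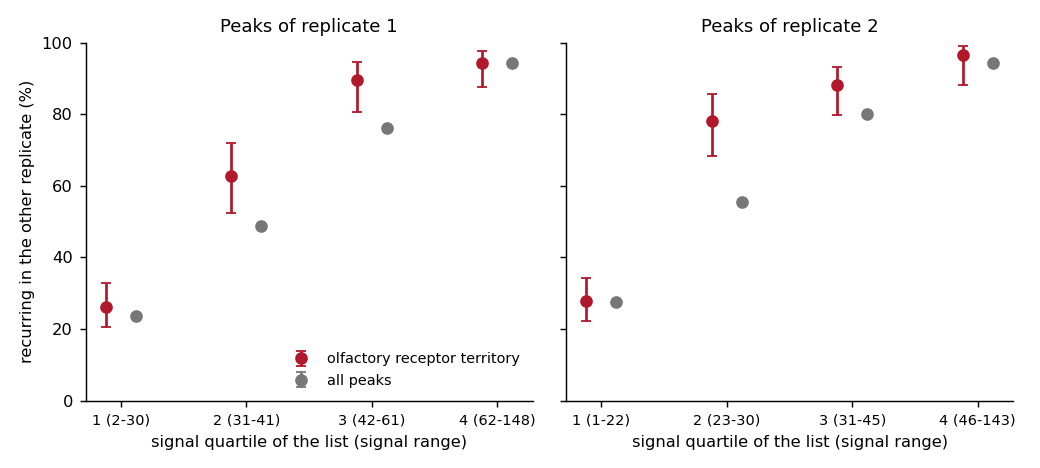
Percentage of peaks covered by at least 50% in the other replicate (vertical axis) by quartile of the signal in the list (horizontal axis, with the signal range), for Olfr-territory peaks (red) and all peaks (grey), with 95% Wilson intervals. In replicate 1 the members recur at 26.3%, 62.6%, 89.5% and 94.4% from the lowest to the highest quartile.

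Every shared peak of replicate 1 was covered by one nearest to the same Olfr gene, which the overlap required of shared peaks makes nearly certain. Over the 262 shared peaks the signals of both replicates had a Spearman rho of 0.818, against 0.864 over all 127632 shared peaks, given as a description because the points share 2 libraries. Members that touched no hotspot of the other replicate numbered 173 in replicate 1 (38.0%) and 154 in replicate 2 (34.6%), against 30.8% and 23.9% of all peaks. They were weak, with median signals of 23 and 14 and highest signals of 53 and 39. The 3-gene array of Olfr372 to Olfr374 on chromosome 8 was the clearest case: it had no peak in replicate 1 and 7 peaks in replicate 2, with signals of 6 to 15 and none above percentile 4.83 of the list.

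Peaks were sparse for the sequence they had to occupy. The territory of the Olfr genes, all sequence nearest to an Olfr TSS within 100 kb of it, covers 30.3 Mb and held 8.64 shared peaks per Mb (exact 95% Poisson interval 7.62 to 9.75). The territory of all protein-coding genes held 62.2 per Mb, so the ratio was 0.139. It was 0.149 for all peaks of replicate 1 and 0.157 for those of replicate 2. Vomeronasal receptor territory held 4.24 shared peaks per Mb (3.40 to 5.21), below Olfr territory, and keratin territory held 76.4 (61.8 to 93.4). With the 50000 strongest peaks of each list the ratio was 0.0865. How much of this sequence reads can be placed on uniquely is not given in the sources used, and its part in the densities was not tested. The soft-masked (repeat) share of a peak averaged 17.5% over members and 10.04% over all peaks in replicate 1, and 16.5% and 9.54% in replicate 2.

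Position relative to the flanking TSSs separated the peaks. Interior sequence, with an Olfr TSS as the next protein-coding TSS on both sides, makes up 25.6 Mb and held 128 shared peaks, 5.01 per Mb (4.18 to 5.96). Both flanking TSSs may belong to the same Olfr gene, as for the 1 interior shared peak of Olfr267, a lone Olfr gene. Border sequence, where one of the flanking TSSs belongs to another kind of gene, makes up 4.78 Mb and held 134 shared peaks, 28.0 per Mb (23.5 to 33.2). The border density was 5.60 times the interior one for shared peaks, 4.502 times for all peaks of replicate 1 and 4.36 times for all of replicate 2. Border peaks were also stronger, with a median signal of 42 against 30 in the interior in replicate 1, and 28 against 21 in replicate 2. They recurred at 64.4% (57.7% to 70.6%) in replicate 1, against 51.8% (45.6% to 58.0%) of interior peaks, and at 66.5% against 53.1% in replicate 2. Vomeronasal receptor territory also had more at its borders, with 8.50 shared peaks per Mb (6.13 to 11.5) there and 2.93 (2.15 to 3.89) in its interior, a ratio of 2.91. Keratin territory had similar densities in both, 79.1 (42.1 to 135) at its borders and 76.0 (60.5 to 94.4) in its interior. The density ratio of Olfr territory kept its direction but not its size: it was 13.4 over the 50000 strongest peaks and 2.67 when the TSSs of all gene types, pseudogenes included, competed for the nearest one.

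**Figure D3:**
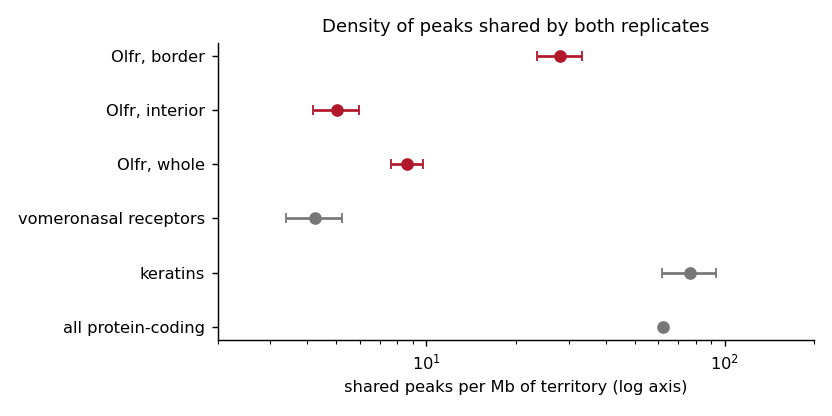
Shared peaks per Mb of territory (horizontal log axis) with exact 95% Poisson intervals, for the borders, interiors and whole of Olfr territory (red) and for vomeronasal receptor, keratin and all protein-coding territory (grey). Border sequence at 28.0 per Mb lies between the Olfr interior at 5.01 and all protein-coding territory at 62.2.

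A shared distal peak was nearest to 133 Olfr genes (11.7%, 9.97% to 13.7%), beside 64.9% of all protein-coding genes. These shares too depend on how much sequence lies nearest to each gene. Few genes held many. Of the Olfr genes, 985 had no shared peak of any class, 99 had 1 and 16 had 4 or more. Members also overlap each other, 55 in replicate 1 and 39 in replicate 2, so peaks are not all separate sites. Shared distal peaks were most numerous at Olfr1423, Olfr267, Olfr1368, Olfr279, Olfr750, Olfr159, Olfr223, Olfr291, Olfr161 and Olfr62. The last 4 of these tie at 4 shared distal peaks with Olfr455, Olfr275, Olfr521 and Olfr1324, and stand before them by mean signal percentile. At the 10 these peaks lie between TSSs of the receptor gene and of another kind of gene, except 1 interior peak of Olfr223. That stretch can take in the receptor gene itself. The Olfr750 peaks 1.61 and 5.09 kb from its TSS are centred in exons within the bounds of that gene. The peaks of Olfr275, Olfr521 and Olfr1324 lie at borders too. All 4 shared distal peaks of Olfr455 count as interior because they lie between TSSs of Olfr455 itself, in an intron of the gene. They are 1.85 to 3.83 kb from the nearest of its TSSs, with signals of 26 to 41 in replicate 1 and 20 to 30 in replicate 2.

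Olfr1423 on chromosome 19 led with 15 shared distal peaks, 23.3 to 34.5 kb from its TSS and between it and Osbp, which encodes an oxysterol-binding protein. Their signals ran from 35 to 120 in replicate 1 and from 26 to 91 in replicate 2. The highest values of all members in both lists, 120 and 91, were among them. Olfr267, a lone Olfr gene on chromosome 4, had 8, with 29 to 92 in replicate 1 and 24 to 67 in replicate 2, lying 22.1 to 73.4 kb away towards Lpar1, the gene of a lysophosphatidic acid receptor. Olfr1368 had 5, with 55 to 119 and 29 to 85, towards Trim27. All of these peaks are border peaks.

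Olfr279 had 5 shared distal peaks towards Kansl2, which encodes a subunit of a histone acetyltransferase complex, with 27 to 88 in replicate 1 and 20 to 55 in replicate 2. Olfr750 had 5 towards the ribonuclease gene Rnase12, with 39 to 117 and 16 to 71. Olfr159 had 5 towards Spaar, with 38 to 92 and 27 to 62. For the other 4 genes the neighbours were Mprip (Olfr223), Zfand6 (Olfr291), Mefv (Olfr161) and Ebna1bp2 (Olfr62). Their 4 shared distal peaks each ran from 20 to 103 in replicate 1 and from 17 to 68 in replicate 2. All 4 peaks of Olfr161 fell within 40.4 to 41.0 kb of its TSS, and those of Olfr291 lay 58.7 to 74.2 kb away.

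The strongest distal peaks lay at transfer RNA genes, a feature that was looked for after their values had been seen. Transfer RNA genes are transcribed by RNA polymerase III from promoter elements inside the gene, the A and B boxes. Of the 10 shared distal members of highest mean signal percentile, 8 lay within 250 bp of a RefSeq tRNA gene, and of the 20 highest 11 did. In all, 18 members in replicate 1 (3.96%) and 19 in replicate 2 (4.27%) did so, against 0.207% and 0.211% of all peaks. In vomeronasal receptor territory 7 peaks in replicate 1 (2.67%) and 8 in replicate 2 (3.54%) did, shares within the intervals of the Olfr members (2.52% to 6.17% and 2.75% to 6.57%). The Olfr members at tRNA genes had a median signal of 104 in replicate 1 and 71 in replicate 2, at median percentiles of 94.0 and 91.6. Peaks at tRNA genes were strong in the lists as a whole too, with median signals of 92 and 63, at percentiles of 90.8 and 88.3. All 14 shared Olfr members at tRNA genes lay at borders.

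Olfr territory contains 13 RefSeq tRNA genes, and 12 had a shared peak, beside 254 of all 408 tRNA genes (62.3%). They lie in the territories of Olfr1423, with 8 of 8 tRNA genes marked by a shared peak, Olfr1368, with 2 of 2, and Olfr750, with 2 of 2. The tRNA gene nearest to Olfr401, n-TKctt5, had no peak in either replicate. At n-TLtaa4, a leucine tRNA gene 25.6 kb from the TSS of Olfr1423, the highest peak signals within 250 bp were 120 and 91. At n-TFgaa4, a phenylalanine tRNA gene near Olfr1368, they were 119 and 85. At n-TTtgt3, a threonine tRNA gene near Olfr750, they were 117 and 71, from different peaks. Neighbouring tRNA genes lie close enough to count the same peak, so the 12 are not separate sites. The weakest of the 12 was n-TFgaa2 near Olfr1423, with 63 and 35. Without the peaks at tRNA genes the border held 25.1 shared peaks per Mb, 5.01 times the interior density, against 5.60 times with them.

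The strongest peak that overlaps a tRNA gene in each of the 3 territories is shown to let the gene be seen within the peak. They are given on the plus strand of mm10, from chr19:12011016-12011165 (Olfr1423), chr13:21161316-21161465 (Olfr1368) and chr14:51065196-51065345 (Olfr750), with the part of the peak inside the tRNA gene in capitals.
Olfr1423 tRNA peak: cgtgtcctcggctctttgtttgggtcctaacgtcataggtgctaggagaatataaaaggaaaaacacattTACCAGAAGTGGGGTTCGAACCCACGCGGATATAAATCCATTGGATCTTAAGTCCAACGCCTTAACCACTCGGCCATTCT
Olfr1368 tRNA peak: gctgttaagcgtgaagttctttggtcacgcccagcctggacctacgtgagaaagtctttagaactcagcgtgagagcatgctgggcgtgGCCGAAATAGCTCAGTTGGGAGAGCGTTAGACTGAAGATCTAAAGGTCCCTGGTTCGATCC
Olfr750 tRNA peak: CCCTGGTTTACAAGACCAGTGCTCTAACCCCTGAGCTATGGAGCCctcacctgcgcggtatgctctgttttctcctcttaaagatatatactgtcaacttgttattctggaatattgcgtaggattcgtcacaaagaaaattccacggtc
Their signals were 120 and 91 (Olfr1423), 119 and 85 (Olfr1368) and 99 and 71 (Olfr750). The first holds 80 bases of n-TLtaa4, the second 61 bases of n-TFgaa4 and the third 45 bases of n-TTtgt3, so each peak holds part of its tRNA gene and some of the flank. The core of the B box, GTTCGANNC, searched on both strands, was present in 8 of the 14 shared distal peaks at tRNA genes (57.1%), in 1 of the 220 other shared distal members and in 0.318% of all 99000 shared distal peaks. A match describes letters in the window and no more. Copies of a tRNA gene are near-identical across the genome, and how the authors placed reads that fit several copies is not given in the sources used.

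The 2 remaining peaks among the 10 strongest were a border peak 14.0 kb from Olfr288, towards Ccdc184, with signals of 101 and 84, and a peak 2.82 kb from Olfr94 inside the array of chromosome 17, with 110 and 76. Interior peaks of such strength were few. Olfr514 had one 28.3 kb away with 100 and 73, and Olfr545 one 13.7 kb away with 104 and 62. A match for the factor CTCF means here an exact fit to a fixed pattern of 12 letters, so near fits are not counted and may be present. Letters of the 3 strongest interior peaks free of tRNA genes and of a CTCF match show how unlike they are. They come from the plus strand of mm10 at chr17:37203736-37203885 (Olfr94), chr7:108797616-108797765 (Olfr514) and chr7:102513196-102513345 (Olfr545), with CG dinucleotides in capitals.
Olfr94 interior peak: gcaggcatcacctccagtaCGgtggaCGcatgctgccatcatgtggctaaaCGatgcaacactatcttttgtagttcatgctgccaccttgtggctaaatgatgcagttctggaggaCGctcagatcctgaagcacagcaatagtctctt
Olfr514 interior peak: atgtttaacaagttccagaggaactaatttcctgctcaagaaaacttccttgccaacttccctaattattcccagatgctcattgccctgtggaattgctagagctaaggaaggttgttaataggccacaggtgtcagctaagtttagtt
Olfr545 interior peak: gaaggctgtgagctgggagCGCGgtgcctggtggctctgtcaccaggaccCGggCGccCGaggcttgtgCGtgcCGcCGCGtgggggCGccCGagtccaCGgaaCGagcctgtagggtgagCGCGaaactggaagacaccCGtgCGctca
The Olfr545 peak has 17 CG dinucleotides and 70.7% GC, whereas the Olfr514 peak has none and 41.3% GC, and the Olfr94 peak has 4. GC content was high also in the pair of peaks between Olfr725 and Olfr726, at 72.7% and 70.0%. These 3 sites stand out from the members at large, whose median GC was 46% in both lists, against 49.3% over all peaks of replicate 1.

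Sequence motifs were counted in the 150 bp of the shared distal peaks, on both strands. CTCF, the factor that bounds loops and domains, had a match in 23 of 234 shared distal members (9.83%, 6.64% to 14.3%), in 5.64% of all shared distal peaks and in 2 of 708 windows 1 kb from members (0.282%). The share was 13.3% in interior peaks (14 of 105, 8.11% to 21.1%) and 6.98% in border peaks (9 of 129, 3.71% to 12.7%), intervals that overlap. Over all distal peaks of a list, shared or not, it was 7.09% of members in replicate 1 and 5.85% in replicate 2, against 3.84% and 3.63% of all distal peaks. The array from Olfr693 to Olfr519 on chromosome 7 had a match in 4 of its 8 shared peaks. With the 50000 strongest peaks the share of members was 16.7%. The share of all shared distal peaks was not computed for that cut, so the rise cannot be set against theirs.

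The 4 strongest shared distal members with a CTCF match are given on the plus strand of mm10 from chr14:51064896-51065045 (Olfr750), chr7:84779276-84779425 (Olfr291), chr4:43861256-43861405 (Olfr155) and chr14:52343736-52343885 (Olfr1513), with the matched bases in capitals.
Olfr750 CTCF-match peak: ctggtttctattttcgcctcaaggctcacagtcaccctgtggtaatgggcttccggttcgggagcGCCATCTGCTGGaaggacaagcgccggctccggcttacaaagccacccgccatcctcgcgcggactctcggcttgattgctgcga
Olfr291 CTCF-match peak: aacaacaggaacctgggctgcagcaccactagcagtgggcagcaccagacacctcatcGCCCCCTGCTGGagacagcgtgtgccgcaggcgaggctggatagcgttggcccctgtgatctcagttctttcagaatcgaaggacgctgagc
Olfr155 CTCF-match peak: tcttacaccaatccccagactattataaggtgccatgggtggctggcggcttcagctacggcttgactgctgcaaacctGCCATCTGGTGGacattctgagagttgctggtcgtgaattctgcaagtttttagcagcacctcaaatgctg
Olfr1513 CTCF-match peak: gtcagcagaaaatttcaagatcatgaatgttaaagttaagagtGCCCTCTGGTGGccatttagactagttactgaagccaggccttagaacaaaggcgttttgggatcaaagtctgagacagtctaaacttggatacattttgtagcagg
Each match takes 12 bases. The Olfr750 peak, with signals of 117 and 69, lies between the tRNA genes n-TPagg4 and n-TTtgt3 and is also counted among the tRNA peaks. The Olfr291 peak had 103 and 58, the Olfr155 peak 85 and 56, and the Olfr1513 peak, towards the zinc finger gene Sall2, 88 and 52. All 4 lie at borders.

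The motifs of the enhancer factors of olfactory neurons had shares close to those of all shared distal peaks. The Ebf motif, TCCCNNGGG, was in 8 of 234 shared distal members (3.42%, 1.74% to 6.60%), against 3.46% of all shared distal peaks. The Lhx2-type homeodomain core, TAATTA, was in 8 as well, against 2.81% of all shared distal peaks, and it was in 5.51% of windows 1 kb from members. The E-box CAGCTG, read by muscle and mesenchymal bHLH factors, was in 14.1% of shared distal members (10.2% to 19.1%) and 20.01% of all shared distal peaks. The NFI core TTGGCA was in 9.40% (6.29% to 13.8%) and 17.5%, and the SP/KLF box GGGCGG in 2.99% (1.46% to 6.04%) and 6.01%. The interval of NFI lies below the share of all shared distal peaks at the coordinates of both replicates (6.96% to 14.7%, against 17.3%, in replicate 2). For the E-box and SP/KLF that holds at the coordinates of 1 replicate and not the other. At those of replicate 2 the E-box interval (10.9% to 20.01%) reaches the 20.01% of all shared distal peaks, and the SP/KLF interval (1.45% to 6.02%) lies below their 6.18%. The TEAD motif GGAATG was in 12.4% of shared distal members and 13.5% of all shared distal peaks.

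The receptor genes form 50 clusters when runs of Olfr TSSs with no gap over 1 Mb are joined, on 18 chromosomes, and chromosomes 12, 18 and Y have none. The 22 clusters of 10 or more genes hold 1041 genes and 181 shared peaks, and each of the 22 had at least 1. Their density was 6.97 shared peaks per Mb, while the smaller clusters, with 94 genes and 81 shared peaks, had 18.5 per Mb. Both densities take border and interior peaks together, and the part of that split in the difference was not tested.

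Among the large clusters the density ran from 1.03 to 25.8 shared peaks per Mb (median 5.99). The array from Olfr987 to Olfr1274-ps on chromosome 2, with 227 genes the largest, had 25 peaks in each replicate and 14 shared ones, 2.84 per Mb. The Olfr543 to Olfr692 array on chromosome 7, with 129 genes, had 24 and 26 peaks and 16 shared ones. The Olfr160 to Olfr986 array on chromosome 9, with 95 genes, had 38 and 50 peaks and 29 shared ones, 27 of them interior, the highest interior count of any cluster. By contrast, 17 of the 26 shared peaks of the Olfr1417 to Olfr1505 array on chromosome 19 lay at borders, 9 of them at tRNA genes. In the Olfr1275 to Olfr1318 array on chromosome 2, with 39 genes, 1 peak was shared, and in the Olfr24 to Olfr18 array on chromosome 9, with 37 genes, 2 were.

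The others fall between these. The Olfr693 to Olfr519 array of 68 genes had 8 shared peaks, all interior. The Olfr9 to Olfr827 array of 60 genes and the Olfr90 to Olfr136 array of 49 had 6 each, divided evenly between interior and border. The Olfr722 to Olfr1507 array of 36 genes had 13. In order of size the arrays starting at Olfr20, Olfr338, Olfr172, Olfr30, Olfr459, Olfr522, Olfr56, Olfr16 and Olfr310 had between 1 and 9 shared peaks. Of the 3 smallest, the Olfr62 to Olfr1328 array of 13 genes had 8 in 0.310 Mb, the highest density of the 22, and the arrays from Olfr1370 to Olfr1359 and from Olfr1358 to Olfr57 had 6 and 4, all at borders.

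**Figure D4:**
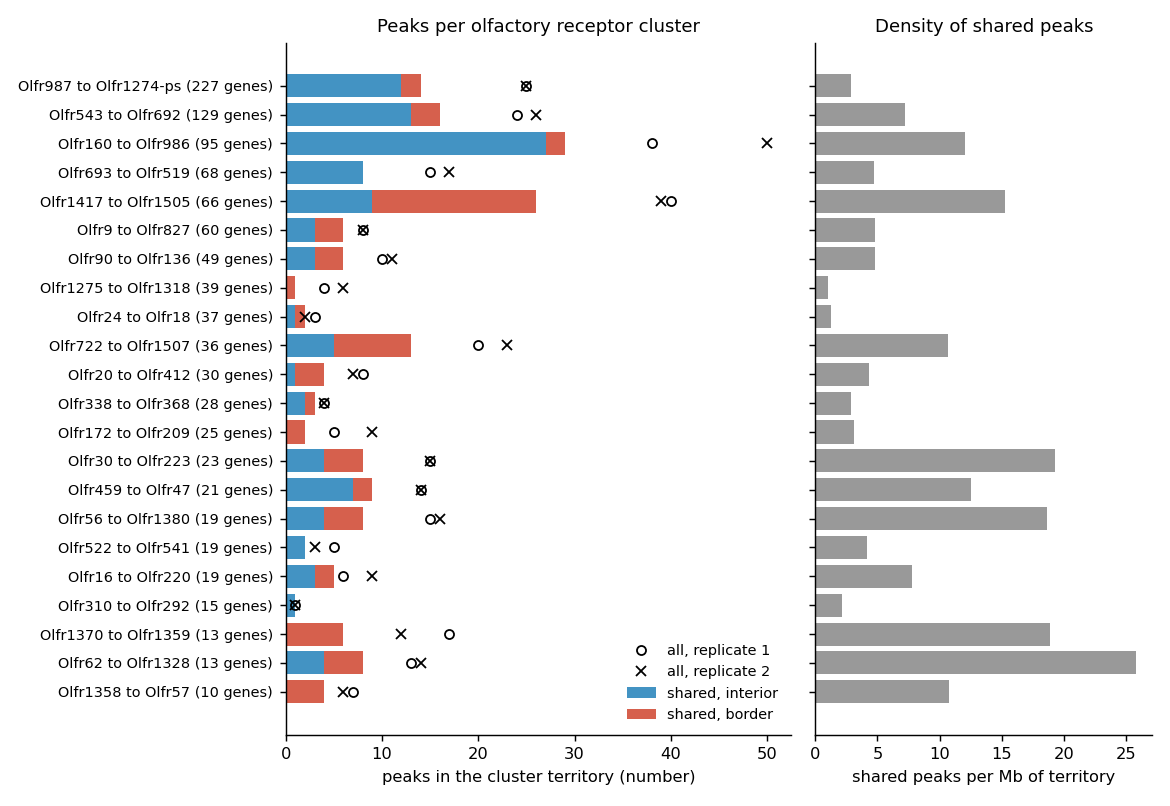
Left, number of peaks in the territory of each Olfr cluster of 10 or more genes, from most to fewest genes, with shared peaks as bars (interior blue, border red) and all peaks of each replicate as a circle and a cross. Right, shared peaks per Mb of the cluster's territory; the Olfr160 to Olfr986 array has the most shared peaks, 29, and the Olfr62 to Olfr1328 array the highest density, 25.8 per Mb.

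Setting both replicates side by side shows where the strong members lie. Of the 262 shared peaks, 110 were interior and 118 were border peaks outside TSS windows and away from tRNA genes, 20 were TSS peaks and 14 were border peaks at tRNA genes.

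**Figure D5:**
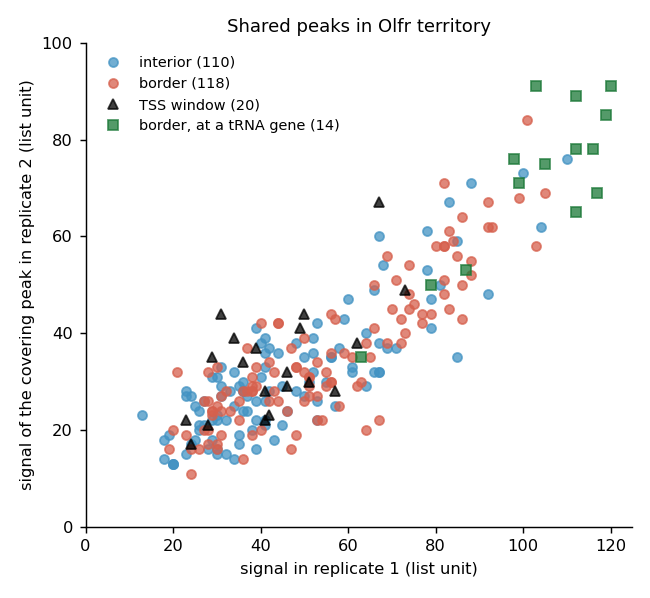
Signal in replicate 1 (horizontal axis) against signal of the covering peak in replicate 2 (vertical axis), both in the unit of the lists, for the 262 shared peaks in Olfr territory. Peaks at tRNA genes (green squares, 14) occupy most of the upper right corner, and no TSS peak (black triangles, 20) exceeds 73 in replicate 1.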

How the data were processed

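DNase-seq peaks and hotspots of 2 limb libraries at embryonic day 14.5 were used. The authors deposited a peak list per library, with 150 bp peaks and a whole-number signal whose scaling is not given in the sources used here, and a hotspot list with a −log10 q-value per region, capped at 100. Both were called per library from alignments to mm10, per the files deposited beside them; aligner and caller: not given in the sources used here. Read depth is unknown, so signals were compared within a list, as percentiles.

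Peaks on chromosomes 1 to 19, X and Y were assigned to the nearest protein-coding TSS of GENCODE M21 on GRCm38 with Python 3.11 scripts (pandas, pysam), and sequences were read from the RefSeq GRCm38.p6 genome. tRNA genes came from the RefSeq gene table of that assembly. The code was checked on simulated intervals. The members, gene lists and rules were chosen with earlier results of these data known, and the analysis of tRNA genes was added after seeing the data. Named genes were those with a shared TSS peak, the 10 with the most shared distal peaks (ties broken by mean signal percentile), the 10 strongest shared distal peaks, clusters of 10 or more genes, and 16 receptors listed by name; other genes named (Olfr545 and Olfr514 interior peaks, Olfr725, Olfr726, Olfr372 to Olfr374, Olfr155, Olfr1513, Olfr401, Olfr455, Olfr275, Olfr521, Olfr1324, Olfr1069-ps1) were chosen after their values were seen.

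No test was run: there is 1 group, and peaks of a library are not replicates of a condition. Shares carry 95% Wilson intervals and densities exact Poisson intervals, which cover counting only, and values over both replicates are means ± SD. Whether the libraries come from separate embryos is not settled, since they share a donor identifier.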

Additional observations from a re-analysis of the deposited data

How the results depend on the processing

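No paired analysis was possible because there is 1 group. Recurrence needs both lists, so it has no value with a replicate left out. With the 50000 peaks of highest signal in each list, Olfr-territory peaks averaged 72.5 per list and 2 Olfr genes had a shared TSS peak. Of these peaks 2.86% lay in TSS windows, recurrence was 80.0% and the CTCF share was 16.7%. The matching shares of all peaks and genes were not computed under this cut. The median percentile within the whole list was 86.7, a high value that the cut itself brings about. The density ratio to all protein-coding territory was 0.0865 and the ratio of border to interior density was 13.4. When TSSs of all gene types competed, the number of peaks was 286, the TSS share 13.1%, recurrence 54.1%, the median percentile 25.3, the density ratio 0.101 and the border ratio 2.67. With the nearest TSS within 50 kb, the TSS share was 8.95% and the density ratio 0.121. Within 20 kb, the TSS share was 11.1%, recurrence 56.2%, the median percentile 26.6 and the density ratio 0.0927. With the outermost 5′ end of each gene only, the TSS share was 6.67% and the border ratio 5.04. TSS windows of 250 and 1000 bp gave TSS shares of 6.001% and 12.5%. An overlap of 1 bp gave a recurrence of 62.2% and a border ratio of 5.87, and overlap with a hotspot of the other replicate gave 63.7%, a border ratio of 5.99 and a density ratio of 0.133. Coordinates of replicate 2 gave a border ratio of 5.47. Without peaks at tRNA genes, added after seeing the data, the border ratio was 5.01, the density ratio 0.132 and the median percentile 26.6. Over the lists taken singly, 32 to 35 genes had a TSS peak, the border ratio was 4.36 to 4.502, the density ratio 0.149 to 0.157 and the CTCF share 5.85% to 7.09%. Border density exceeded interior density and Olfr density stayed below that of all protein-coding territory under each alternative run. Cluster counts of 55 and 43 came from gaps of 0.5 and 2 Mb, against 50. The causes of these changes were not tested. The 2 replicates and the unknown read depth limit the precision of every value.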
